A study of Mus musculus with 4 samples.

Results

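Costimulatory receptors and their ligands were followed across the cell types of 4T1 tumours, namely Cd28, Icos, Cd27, Tnfrsf4, Tnfrsf9, Tnfrsf18, Cd40lg, Cd40, Icosl and Tnfsf9. These 10 genes were taken by symbol from the 55450 features of a single-cell RNA sequencing (scRNA-Seq) matrix, and each symbol matched a single feature. A T cell that meets its antigen needs a further signal to divide and survive, and CD28, which binds CD80 and CD86 on the presenting cell, gives the first of these. ICOS and the tumour necrosis factor (TNF) receptors CD27, OX40 (Tnfrsf4), 4-1BB (Tnfrsf9) and GITR (Tnfrsf18) prolong the response, and several of them are known to be abundant on regulatory T cells in tumours. Signals also run the other way, since CD40 ligand (Cd40lg) on helper T cells binds CD40 on dendritic cells, B cells and macrophages and licenses them to present antigen.

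Tumours were grown from 4T1, a mouse mammary carcinoma line, with 1000000 cells placed under the skin of the right flank of female BALB/c mice aged 6 to 8 weeks. On day 7 the mice received PBS or TIOs, a T-cell-inspired oncolytic system in which near-infrared (NIR) light drives lipid peroxidation of the tumour cell membrane, into a vein. All groups were irradiated on day 8, again on day 9 and last on day 10, each time at 980 nm and 1.0 W cm-2 for 5 min, tumours were taken on day 13, and CD45+ cells were sorted for 10x Genomics sequencing. Of the 4 samples, 2 were labelled PBS+NIR and 1 TIOs+NIR, and for the last the title and the protocol named different injections, so it was left without a group. The cells came as a single matrix whose barcodes carry the suffixes 1 to 4, and no label or file ties a suffix to a sample. The 4 suffixes are therefore called libraries 1 to 4, their treatment is unknown, and no treatments were compared. No p-value is given, because cells are not replicates.

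Of 33064 barcodes, 32133 held at least 300 genes and at most 15% mitochondrial UMIs (unique molecular identifiers, each a counted RNA molecule), with 6783 to 8889 cells and a median of 2641.5 to 11698 UMIs per cell in a library. Ptprc, which encodes CD45, had a UMI in 56.4% of these cells, and between 37.9% and 77.4% by library, and 3946 cells passed a tumour gate and 3911 a fibroblast gate. The matrix was thus not limited to the CD45+ cells that the study describes. Cells were placed in gates by marker genes that are no members of the list, 868 cells that met gates of different compartments were left out as mixed, and 6063 met no gate. There were 264 CD8 T cells, of which 240 were in library 1. Foxp3- CD4 T cells numbered 357, with 31, 41, 186 and 99 in libraries 1 to 4, and Foxp3+ T cells 143, with 27, 23, 78 and 15. T cells without a Cd4, Cd8 or Foxp3 UMI (Cd4-Cd8- T) numbered 439, NK cells 150, plasmacytoid dendritic cells (pDC) 168, type 1 and type 2 conventional dendritic cells (cDC1 and cDC2) 86 and 308, and neutrophils 7061. Mature dendritic cells (mature DC) numbered 223, of which 184 were in library 3. The cDC1, cDC2 and pDC gates also held monocyte marker genes, at medians of 5.84, 16.9 and 61.5 UMIs per 10000. Their own markers were at 5.35, 17.7 and 80.0. With cells named by cluster, 0 were cDC1 and 830 were cDC2. In the NK gate the marker Klra8 had no UMI. The 29 B cells were too few for an order of levels. In kept cells 95 barcode sequences occurred in more than 1 library.

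Levels below are UMIs of a gene per 1000000 UMIs of a gate (CPM), summed over its cells, followed by a 95% exact Poisson interval. Shares of cells with a UMI carry an exact Clopper-Pearson interval, and both intervals cover counting error only. Free RNA can give any cell a UMI, so shares are set beside those of neutrophils (median 1842 UMIs per cell), which should lack the T cell receptors. Levels are compared between gates for 1 gene and never between genes.

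The upstream sequences of 3 receptors are shown because these were the genes called higher in Foxp3+ than in Foxp3- CD4 T cells below, and Tnfrsf9 and Tnfrsf4 also in mature DC. Each line gives the 250 bases before a RefSeq transcript start in GRCm38.p6, read 5′ to 3′, with 2 annotated starts for Tnfrsf9. Capitals mark matches, on either strand, to the NF-kB letters GGGNNNNNCC or the AP-1 letters TGANTCA.
Tnfrsf9, chr4:150919905-150920154, plus strand: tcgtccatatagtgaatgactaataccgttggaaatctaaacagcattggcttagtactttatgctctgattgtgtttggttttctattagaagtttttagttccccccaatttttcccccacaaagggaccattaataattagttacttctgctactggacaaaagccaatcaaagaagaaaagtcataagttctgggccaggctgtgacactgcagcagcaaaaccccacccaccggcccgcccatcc
Tnfrsf9, chr4:150927749-150927998, plus strand: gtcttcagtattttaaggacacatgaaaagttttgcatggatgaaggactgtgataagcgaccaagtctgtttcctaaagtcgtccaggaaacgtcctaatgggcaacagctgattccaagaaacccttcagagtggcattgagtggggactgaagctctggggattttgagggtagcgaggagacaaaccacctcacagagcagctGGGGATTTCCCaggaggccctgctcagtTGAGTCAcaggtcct
Cd27, chr6:125237028-125237277, minus strand: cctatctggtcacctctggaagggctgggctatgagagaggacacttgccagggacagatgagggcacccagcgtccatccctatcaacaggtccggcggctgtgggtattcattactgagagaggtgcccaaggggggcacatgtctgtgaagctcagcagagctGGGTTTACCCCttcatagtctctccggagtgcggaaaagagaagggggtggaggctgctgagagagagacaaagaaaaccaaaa
Tnfrsf4, chr4:156013445-156013694, plus strand: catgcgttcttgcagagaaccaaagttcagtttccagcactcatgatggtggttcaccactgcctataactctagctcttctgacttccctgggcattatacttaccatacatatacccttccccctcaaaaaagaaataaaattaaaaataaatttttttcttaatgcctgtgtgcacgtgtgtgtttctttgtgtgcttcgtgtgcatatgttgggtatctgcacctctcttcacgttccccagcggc
The downstream Tnfrsf9 window held 2 overlapping NF-kB matches, from 43 to 33 bases before the start, and 1 AP-1 match from 15 to 9 bases before it. The Cd27 window held 2 overlapping NF-kB matches, while the Tnfrsf4 window and the upstream Tnfrsf9 window held none. Of 32851 promoters of this length, 45.8% held the NF-kB letters and 6.75% the AP-1 letters, and a further motif, the forkhead letters GTAAACA, was in 3.17% of them and in none of these 4 windows. A match describes the letters and not a bound site. On chromosome 4 of GRCm38, Tnfrsf4 (156013843 to 156016612) and Tnfrsf18 (156026164 to 156028895) lay 9551 bases apart on the plus strand, and on chromosome 1 Cd28 (60716800 to 60773359) and Icos (60977927 to 61000320) lay 204567 bases apart, with Ctla4 between them.

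Among 18 gates of at least 50 cells, 7 of the 10 genes were highest in a T cell gate and 3 in mature dendritic cells. Library by library, 2 of them, Cd28 and Cd40lg, had the same leading gate in each, and 6 did when library 4 was left out. Gates of fewer than 20 cells in a library took no part, among them Foxp3+ T cells in library 4 (15 cells) and mature DC in libraries 1 and 4. CD8 T cells took no part in libraries 2 to 4. The share over all genes was not computed for these counts. The 3 genes of mature dendritic cells depended on the setting: 2 remained on thinning, with cells named by cluster and without library 1, and 1 without library 2, while without library 3 the gate had 39 cells and took no part in the order. Over all libraries and 14199 genes with at least 300 UMIs, 17.6% were highest in a T cell gate and 5.63% in the mature dendritic gate. The 5 T cell receptors other than Tnfrsf9 had 63.6% to 81.3% of their UMIs in T cell gates, which held 1.83% of all UMIs, and Cd40lg had 86.5%. Tnfrsf9 was spread more widely, with 32.6% of 8654 UMIs in T cell gates and 20.8% in dendritic gates. Cd40, Icosl and Tnfsf9 had 24.7%, 8.54% and 8.86% of their UMIs in dendritic gates, and monocytes and macrophages, which are far more numerous, held 40.4%, 29.7% and 27.1%.

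**Figure D1:**
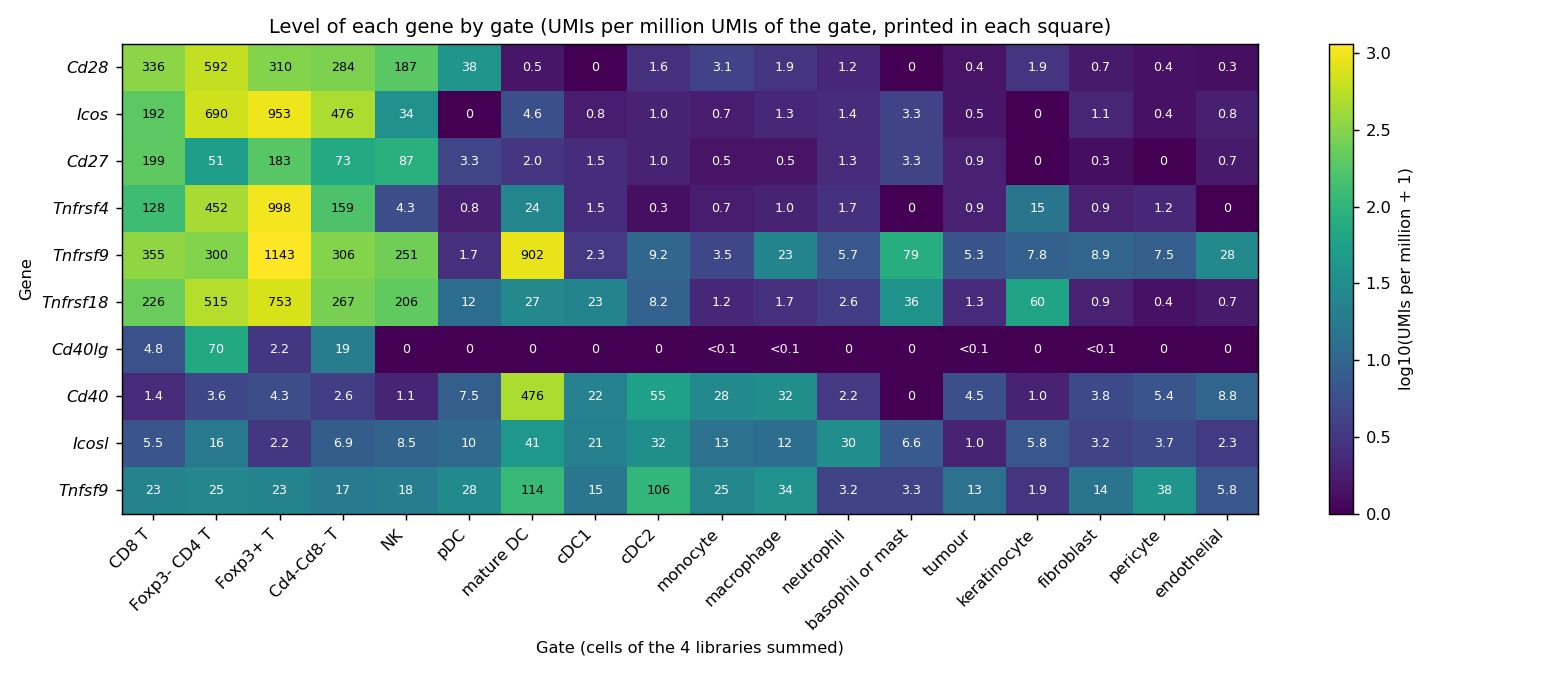
Level of each of the 10 genes (rows) in each of 18 gates (columns), in UMIs per 1000000 UMIs of the gate over the 4 libraries, with the value printed in each square and the colour on a log10 scale after adding 1. Receptors of T cells are highest in a T cell column, Tnfrsf9 is also high in mature DC at 902, and Cd40 reaches 476 there.

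CD28, the receptor for CD80 and CD86, was highest on the RNA level in Foxp3- CD4 T cells. Cd28 reached 648, 438, 690 and 534 CPM in this gate in libraries 1 to 4, and 592 CPM (560 to 625) over all. Among gates of at least 20 cells this gate led in every library, although in library 2 its interval overlapped that of Foxp3+ T cells. CD8 T cells at 336 CPM (307 to 367), Foxp3+ T cells at 310 (276 to 348) and Cd4-Cd8- T cells at 284 (260 to 309) followed with intervals that overlapped between neighbours. A Cd28 UMI was found in 85.4% of Foxp3- CD4 T cells (81.3% to 88.9%; median 4550 UMIs per cell) and in 0.212% of neutrophils. With each cell thinned to 1000 UMIs the shares were 47.7% and 0.149%. Cd28 was not limited to T cells, with 187 CPM (160 to 216) in NK cells and 38.5 CPM (28.2 to 51.3) in pDC. Of 168 pDC 17.3% held a Cd28 UMI, and in libraries 2, 3 and 4 the pDC level was 47.5, 47.5 and 30.2 CPM. By contrast, cDC1 had no Cd28 UMI in 86 cells, which allows up to 2.25 CPM, and mature DC had 1.

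ICOS, a CD28 relative induced on activated T cells, was highest in Foxp3+ T cells. Icos was at 953 CPM (891 to 1018) in Foxp3+ T cells, 690 (656 to 726) in Foxp3- CD4 T cells, 476 (445 to 508) in Cd4-Cd8- T cells, 192 (170 to 216) in CD8 T cells and 34.1 (23.3 to 48.2) in NK cells, and none of these intervals overlapped. In Foxp3+ T cells it reached 893, 709, 1191.5 and 920 CPM in libraries 1 to 4. In Foxp3- CD4 T cells the same libraries gave 629, 394, 896 and 579 CPM, so the Foxp3+ gate was higher in each of the 4. The intervals overlapped in library 1, and library 4 had only 15 Foxp3+ T cells. In library 2 Cd4-Cd8- T cells, at 399 CPM, were level with Foxp3- CD4 T cells. An Icos UMI was present in 94.4% of Foxp3+ T cells (89.3% to 97.6%; median 3805 UMIs per cell) and in 0.241% of neutrophils. No Icos UMI was seen in 168 pDC, which allows a share of up to 1.79%.

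CD27, a TNF receptor of naive and memory T cells and of NK cells, had a different order. Cd27 was at 199 CPM (177 to 223) in CD8 T cells and 183 (157 to 213) in Foxp3+ T cells, which could not be told apart by counting error. NK cells at 87.4 CPM (69.5 to 109), Cd4-Cd8- T cells at 73.0 (61.3 to 86.3) and Foxp3- CD4 T cells at 51.2 (42.2 to 61.5) came next, again with overlapping neighbours. By value, Foxp3- CD4 T cells were thus the lowest T cell gate for Cd27 and the highest for Cd28. A Cd27 UMI was found in 57.6% of CD8 T cells (51.4% to 63.6%; median 4464.5 UMIs per cell) and 55.9% of Foxp3+ T cells (47.4% to 64.2%), beside 0.241% of neutrophils. Since 240 of the 264 CD8 T cells were in library 1, the CD8 level is in effect that of library 1, at 206 CPM, and the other 24 cells gave 93.8. In library 1 itself Foxp3+ T cells were higher by value, at 326 CPM, with overlapping intervals. Among gates of at least 20 cells they led in libraries 1 to 3, each time with an interval that overlapped the second gate. In libraries 2 and 3 the CD8 T gate, with 3 and 14 cells, took no part. Over all libraries Foxp3+ T cells also led on thinning and without library 2. They led without library 1 too, but there the 24 CD8 T cells were under the 50 needed and took no part.

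OX40 and GITR, the products of the neighbouring genes Tnfrsf4 and Tnfrsf18, were both led by Foxp3+ T cells. Tnfrsf4 reached 998 CPM (935 to 1064) there, 452 (424 to 481) in Foxp3- CD4 T cells, 159 (141 to 178) in Cd4-Cd8- T cells and 128 (110 to 148) in CD8 T cells. Tnfrsf18 reached 753 CPM (699 to 811) in Foxp3+ T cells and 515 (486 to 546) in Foxp3- CD4 T cells, with Cd4-Cd8- T, CD8 T and NK cells at 267, 226 and 206 CPM. The order of the first 2 gates held for Tnfrsf4 in each library. Tnfrsf18 was at 1014, 470, 879 and 1153 CPM in Foxp3+ T cells of libraries 1 to 4. In Foxp3- CD4 T cells it was at 873, 474, 484 and 529 CPM, so the gates were level in library 2. Library 4 had only 15 Foxp3+ T cells. The genes parted in NK cells, where Tnfrsf18 had a UMI in 60.0% of cells (51.7% to 67.9%; median 4064.5 UMIs per cell) and Tnfrsf4 in 2% (0.414% to 5.73%). Neutrophils had 0.467% and 0.354%. Outside lymphocytes Tnfrsf18 was at 60.3 CPM (46.3 to 77.3) in 71 keratinocytes, all of library 1, and at 23.3 (15.8 to 33.1) in cDC1.

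4-1BB, a receptor induced on activated T and NK cells, was high in both lymphocytes and mature dendritic cells. Tnfrsf9 was at 1143 CPM (1075 to 1213) in Foxp3+ T cells and 902 (860 to 945) in mature DC, while cDC1 with cDC2 were at 7.08. Library 3 supplied 1621 of the 1765 UMIs in mature DC, and without it the level was 386 CPM in mature DC and 792 in Foxp3+ T cells. CD8 T cells at 355 CPM, Cd4-Cd8- T cells at 306, Foxp3- CD4 T cells at 299.9 and NK cells at 251 followed, each with an interval that overlapped the next. This order did not hold in library 1, which had 240 of the 264 CD8 T cells. There Cd4-Cd8- T cells came second at 624 CPM, above CD8 T cells, and Foxp3- CD4 T cells were at 592. In mature DC 79.4% of cells (73.5% to 84.5%; median 8937 UMIs per cell) had a Tnfrsf9 UMI, beside 1.09% of neutrophils, and thinned to 1000 UMIs the shares were 45.9% and 0.508%. Macrophages had 22.8 CPM (21.2 to 24.5), ranging from 5.66 in library 4 to 40.6 in library 1. Endothelial cells had 27.9 CPM (23.8 to 32.4), with 166 in library 1 and 15.4, 22.3 and 15.8 in libraries 2 to 4. The basophil or mast cell gate reached 78.7 CPM, but 21 of its 24 UMIs were in 1 cell.

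CD40 ligand, the helper T cell signal to CD40, had 230 UMIs in all. Cd40lg was at 84.5, 62.9, 63.1 and 82.7 CPM in Foxp3- CD4 T cells in libraries 1 to 4, and at 70.2 CPM (59.6 to 82.2) over all. The counting intervals of the 4 libraries overlapped, and this gate led in each, although in libraries 2 and 3 its interval overlapped that of Cd4-Cd8- T cells. Cd4-Cd8- T cells followed at 18.5 CPM (12.9 to 25.8), of which 26 of 35 UMIs were in library 3. Foxp3+ T cells held 2 UMIs in 143 cells. No UMI was found in 7061 neutrophils, which allows up to 0.207 CPM, nor in 150 NK cells, which allows up to 3.20 CPM.

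**Figure D2:**
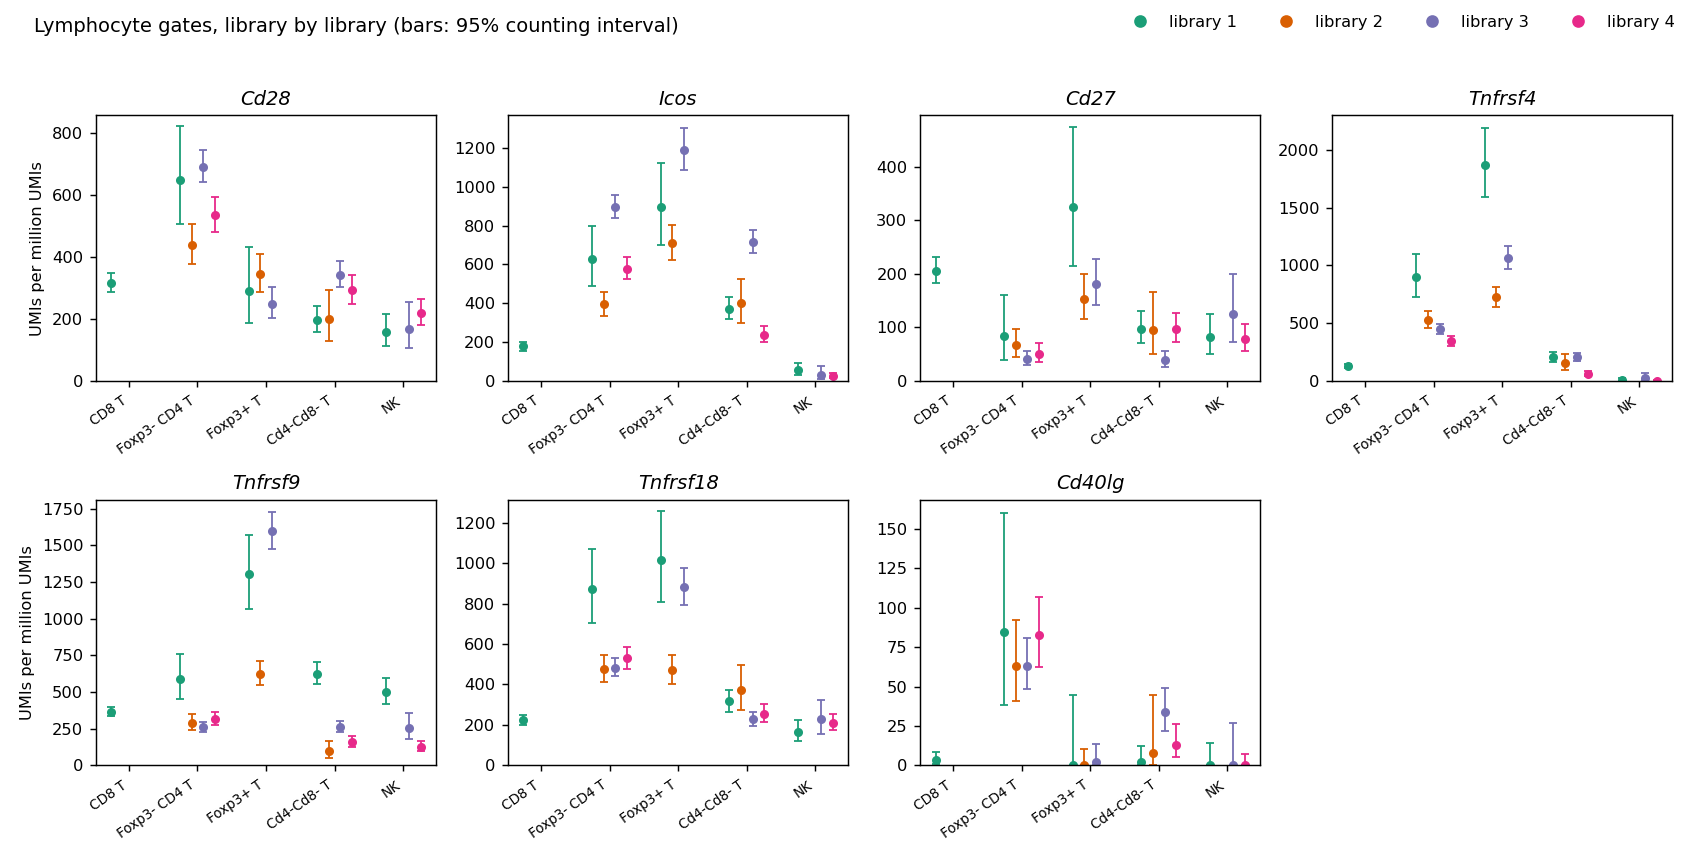
Levels of the T cell genes in lymphocyte gates, in UMIs per 1000000 UMIs, with a point for each library with at least 20 cells in the gate and bars for the 95% counting interval. By value, Cd28 and Cd40lg are highest in Foxp3- CD4 T cells in each library. Bars of the 2 highest gates overlap in library 2 for both genes and in library 3 for Cd40lg. Icos is higher in Foxp3+ than in Foxp3- CD4 T cells in libraries 1 to 3, the ones with points in both gates.

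The Cd4-Cd8- T gate mixed at least 2 kinds of cell, which were split after their values were seen, by clusters made without the 10 genes. A cell that met both the T cell and the NK gate had been named a T cell. In the 323 cells that fell in the main CD4 T cluster, Icos was at 808 CPM (755 to 863), Tnfrsf4 at 272 (242 to 305) and Cd40lg at 32.6 (22.7 to 45.3). In the 104 cells of the main NK cluster, Icos was at 39.98 CPM (26.6 to 57.8), Tnfrsf4 at 2.86 (0.346 to 10.3), and Cd40lg had no UMI. Tnfrsf9 was lower in the first cluster than in the second, at 288 CPM (257 to 322) against 380 (336 to 428), and the Cd27 intervals overlapped, at 67.1 CPM (52.5 to 84.5) and 94.2 (72.9 to 120). Cd28 and Tnfrsf18 in those 104 cells were at 194 and 220 CPM, with intervals that overlapped those of the NK gate, whereas the Tnfrsf9 interval lay above it.

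Foxp3, the transcription factor of regulatory T cells, was then used to compare Foxp3+ T cells with Foxp3- CD4 T cells. As a check, Ikzf2 was at 1233 and 51.2 CPM and Il2ra at 1172 and 173 CPM over all libraries. The check was weaker in library 1, with Ikzf2 at 1231 and 357 CPM and Il2ra at 278 and 150. The Il2ra ratio there was 1.85 (0.935 to 3.74), an interval that includes no difference. In libraries 2 and 3 the ratios were 26.7 and 38.5 for Ikzf2 and 3.84 and 10.3 for Il2ra. A gene was called where its fold passed 2, on a log2 scale after adding 10 CPM, among 6479 genes with at least 20 CPM in either gate. Of the 8 members tested 3 were higher, Cd27, Tnfrsf4 and Tnfrsf9, and 1 was lower, Cd40lg. Over all genes tested 3.23% were higher and 3.12% lower, and the median log2 fold was 0.50 for the 8 members and 0.04 for all genes. Cd40 and Icosl were below the level tested.

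Tnfrsf9 was at 1304 and 592 CPM in library 1, 626 and 290 in library 2, and 1598 and 259 in library 3, Foxp3+ T cells first; library 4 had 15 Foxp3+ T cells and is not shown apart. The Foxp3+ gate was higher in each, and the fold over all libraries was 3.81 (3.45 to 4.21), with a log2 value of 1.90 that was 1.22 without library 3. Cd27 was at 326 and 84.5 CPM in library 1, 154 and 67.7 in library 2, and 181 and 41.1 in library 3, and the fold over all was 3.58 (2.81 to 4.58), an interval that overlapped that of Tnfrsf9. Tnfrsf4 was at 1871 and 902, 722 and 530, and 1065 and 446 CPM, with a fold of 2.21 (2.02 to 2.42). This gene was near the limit, with a log2 fold of 1.13 that was 0.98 without library 4 and 0.62 where a Cd4 UMI was also required of the Foxp3+ T cells, which 74 of 143 had.

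Cd40lg fell on the other side, with 2 UMIs (2.16 CPM) in Foxp3+ T cells and 155 UMIs (70.2 CPM) in Foxp3- CD4 T cells, a ratio of 0.031 (0.0037 to 0.113). The other members lay within the limit, with log2 folds of 0.46 for Icos, 0.54 for Tnfrsf18, -0.10 for Tnfsf9 and -0.91 for Cd28. Tnfrsf18 was equal in library 2, at 470 and 474 CPM. Cd28 was at 290 and 648 CPM in library 1, 343 and 438 in library 2, and 248 and 690 in library 3, lower in Foxp3+ T cells in each of them. Its log2 fold passed the limit in 5 of the alternatives, reaching -1.49 in cells thinned to 1000 UMIs.

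Among the partners of these genes, Ctla4, the inhibitory receptor that competes with CD28 for CD80 and CD86, was the one gene of 6 that could be tested, at 1063 and 201 CPM. Of 12 other costimulatory genes 7 were tested, with Tnfrsf8 (CD30) higher at 50.7 and 3.17 CPM and its ligand gene Tnfsf8 lower at 3.23 and 218 CPM. All 7 adaptors and targets of TNF receptors were tested and 0 were called, with Birc2 nearest at a log2 fold of 0.96. At the ends of the whole list stood Foxp3 itself, which set the gates, Ikzf2, Klrg1, Igkc and Gzma as the highest, and Il13, Tnfsf8, Tcf7, Lgals7 and Ifitm1 as the lowest. Igkc is an immunoglobulin gene, with 112 and 3 UMIs. Lgals7, with 20 and 558 UMIs, is also a marker of the keratinocyte gate, at 16167 CPM there. Whether free RNA gave these UMIs was not tested.

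**Figure D3:**
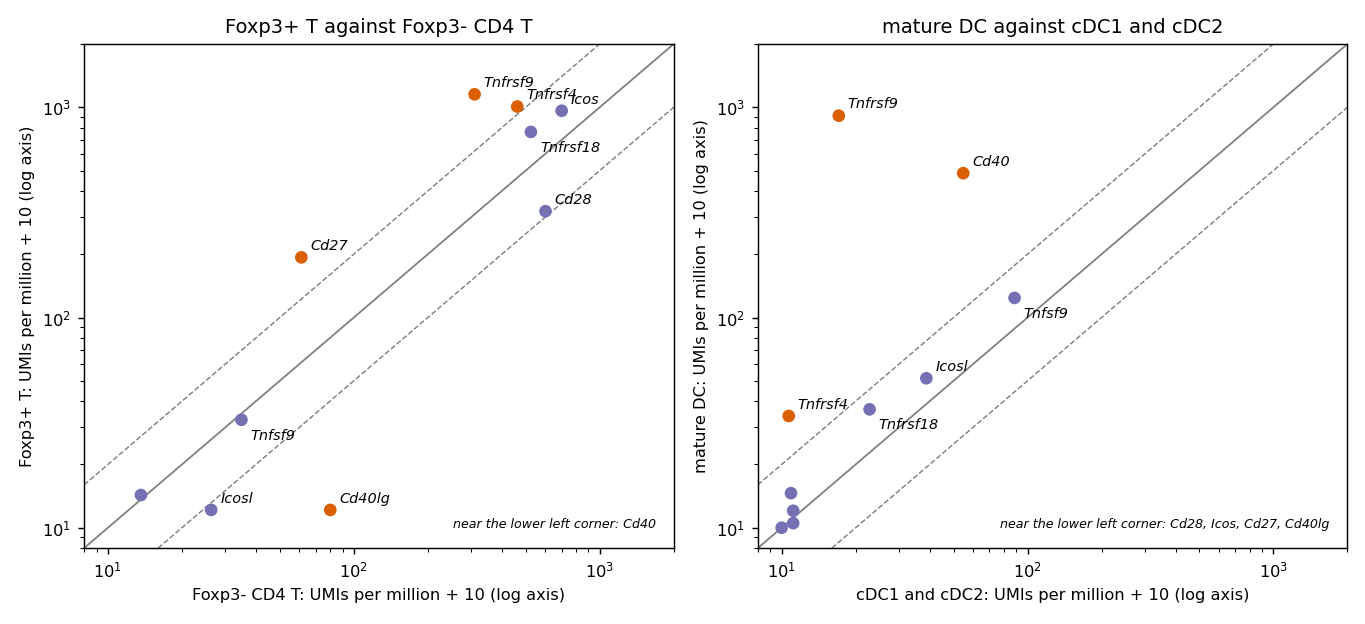
Level of each gene, plus 10, in the 2 comparisons on log axes, Foxp3+ T cells against Foxp3- CD4 T cells and mature DC against cDC1 with cDC2. Tnfrsf9, Cd27 and Tnfrsf4 lie above 2-fold in the first, and Tnfrsf9, Cd40 and Tnfrsf4 in the second.

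The number of receptors detected in the same cell differed between gates. Counting how many of 6 receptors (Cd28, Icos, Cd27, Tnfrsf4, Tnfrsf9 and Tnfrsf18) had a UMI in a cell thinned to 1000 UMIs, Foxp3+ T cells held a mean of 2.91, Foxp3- CD4 T cells 1.98, Cd4-Cd8- T cells 1.26, CD8 T cells 1.19 and NK cells 0.687. At least 4 of the 6 were found in 27.0% of 141 Foxp3+ T cells and 7.34% of 354 Foxp3- CD4 T cells. The mean in Foxp3+ T cells was 2.96, 2.61, 3.03 and 2.67 in libraries 1 to 4, the last from 15 cells. In Foxp3- CD4 T cells it was 2.23, 2, 2.05 and 1.77, so the ranges did not overlap. Unthinned, the means were 4.73 and 3.82. Cd27, Tnfrsf4 and Tnfrsf9, called higher in Foxp3+ T cells above, are among the 6, so these counts are not separate from those levels. The number expected from the share of each gene alone was not computed. In thinned Foxp3+ T cells, a Tnfrsf9 UMI was found in 78.6% of cells with a Tnfrsf4 UMI and 57.9% of those without. For Tnfrsf18 the same shares were 60.7% and 54.4%, and in thinned CD8 T cells Cd27 was found in 16.7% of cells with a Tnfrsf9 UMI and 20.4% of those without.

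**Figure D4:**
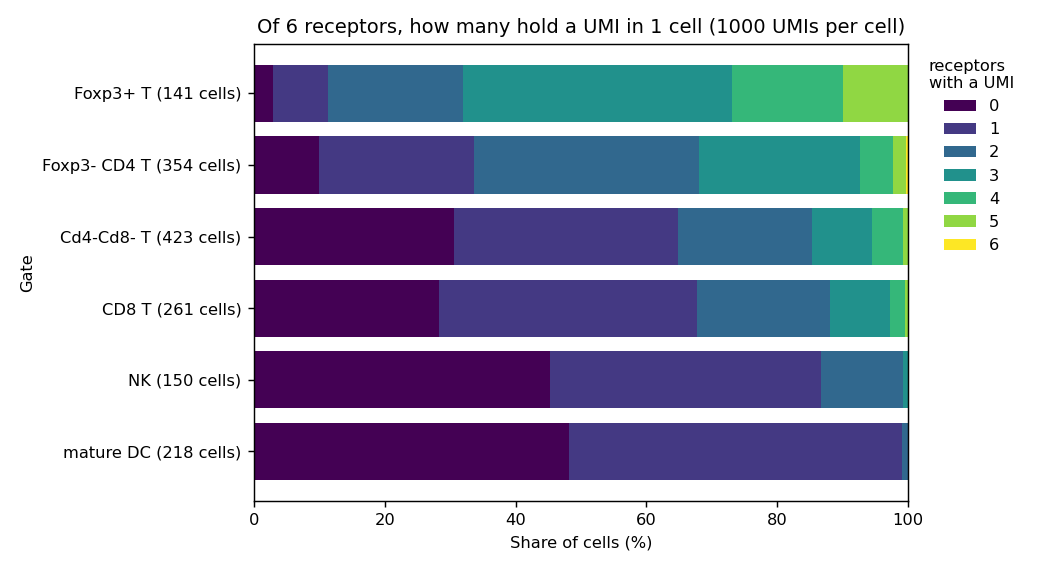
Share of cells (%) in each gate by the number of 6 receptors with a UMI, each cell thinned to 1000 UMIs. Cells with at least 4 make up 27.0% of Foxp3+ T cells and 7.34% of Foxp3- CD4 T cells.

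CD40, the receptor that licenses presenting cells, was highest in mature DC, the Ccr7+ state in which dendritic cells move to lymph nodes. Cd40 was at 182, 175 and 544 CPM in mature DC of libraries 1 to 3, and at 476 CPM (446 to 507) over all, with 862 of 931 UMIs from library 3. It was followed by cDC2 at 54.8 CPM (46.8 to 63.8), then macrophages at 31.5 (29.7 to 33.5) and monocytes at 27.9 (26.0 to 29.9), which overlapped. A Cd40 UMI was present in 82.1% of mature DC (76.4% to 86.9%) and 0.453% of neutrophils, and in 34.4% and 0.194% after thinning. In monocytes the level was 65.0, 37.3, 50.6 and 24.4 CPM in libraries 1 to 4.

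ICOS ligand was spread across myeloid cells with small differences. Icosl was at 41.4 CPM (32.9 to 51.4) in mature DC, 32.1 (26.1 to 39.2) in cDC2 and 30.2 (27.4 to 33.2) in neutrophils, and these intervals overlapped. The mature DC level was 16.5, 170 and 23.4 CPM in libraries 1 to 3, so library 2, with 21 cells, set it. Neutrophils had 9.41, 28.2, 36.4 and 29.2 CPM in libraries 1 to 4, and for this gene they are no background.

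4-1BB ligand, the partner of Tnfrsf9, was at 114 CPM (99.5 to 130) in mature DC and 106 (95.03 to 119) in cDC2, which could not be told apart. Tnfsf9 was next in pericytes at 37.9 CPM (30.5 to 46.5) and macrophages at 34.1 (32.2 to 36.2), and it was at 3.24 in neutrophils. In macrophages it was 26.5, 38.8, 103 and 28.8 CPM in libraries 1 to 4, and in monocytes 13.0, 20.3, 75.7 and 19.9, with library 3 highest in both. Tumour cells and stromal and endothelial cells held 15.9% and 25.8% of all Tnfsf9 UMIs, at low levels in deeply sequenced cells.

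**Figure D5:**
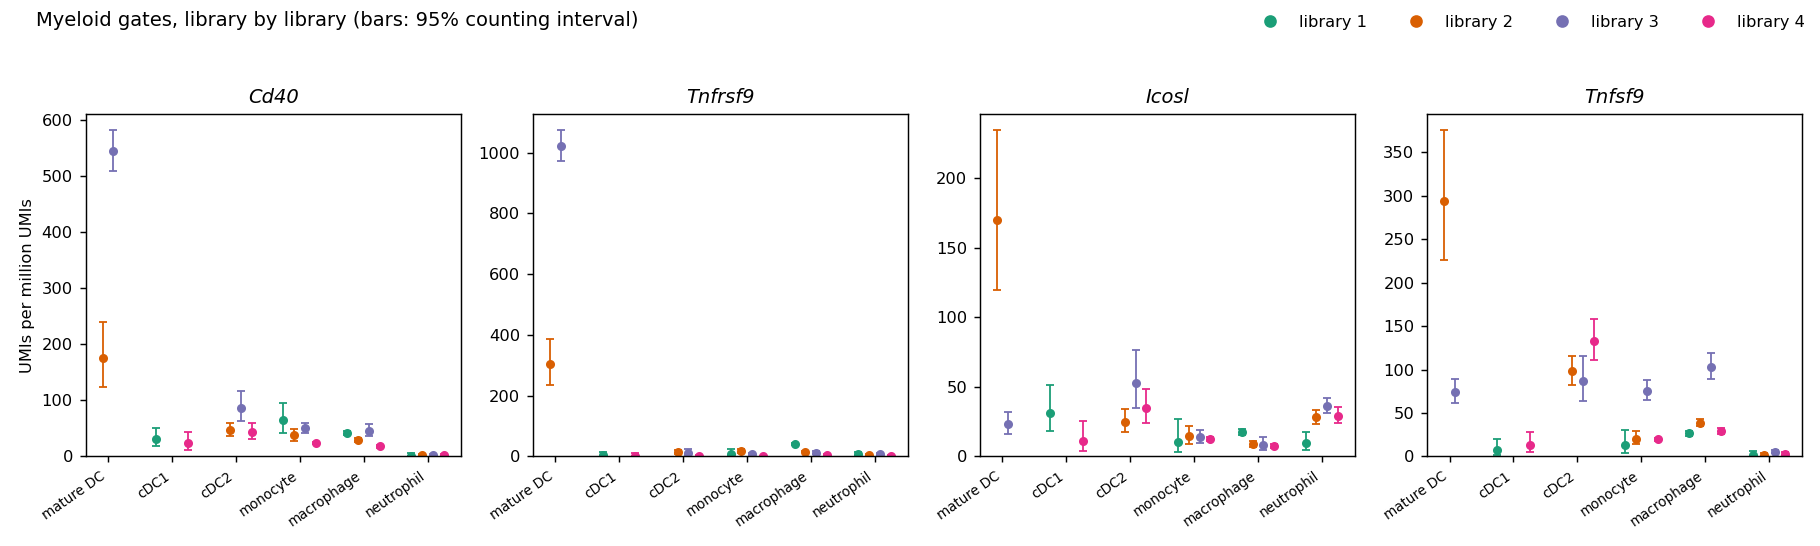
Levels of the genes of presenting cells in myeloid gates, in UMIs per 1000000 UMIs, with a point for each library with at least 20 cells in the gate and bars for the 95% counting interval. Cd40 in mature DC is 544 in library 3 and 175 in library 2, whereas Icosl is 170 in library 2 and 23.4 in library 3.

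Mature DC were compared with cDC1 and cDC2 together, by the same rule. Of the 6 members tested among 6297 genes, 3 were higher, Tnfrsf9, Cd40 and Tnfrsf4, and 0 were lower. Over all genes tested 10.2% were higher and 15.3% lower. Tnfrsf9 was at 303 and 12.6 CPM in library 2 and 1023 and 9.30 in library 3, and its log2 fold over all of 5.74 was among the 5 highest of all genes, with Ccl5, Fscn1, Ccl22 and Ccr7, of which Fscn1, Ccl22 and Ccr7 set the gate. The lowest were Cd209a, which set the cDC2 gate, Naaa, Ccr2, Ckb and H2-DMb1.

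Cd40 was at 175 and 40.6 CPM in library 2 and 544 and 72.8 in library 3, higher in mature DC in both, with folds of 4.30 (2.82 to 6.46) and 7.47 (5.57 to 10.2). The fold over all of 10.6 (9.10 to 12.5) was larger than either, and its log2 value of 3.15 was 1.97 without library 3. Tnfrsf4 was at 24.0 and 0.685 CPM, the latter from 3 UMIs, a ratio of 35.1 (11.3 to 176), and without library 2 its log2 fold of 1.25 was still past the limit but its level of 15.5 CPM was below the 20 CPM tested. Tnfrsf18, Icosl and Tnfsf9 had log2 folds of 0.68, 0.41 and 0.49. Icosl was at 170 and 23.5 CPM in library 2 and 23.4 and 48.0 in library 3, and Tnfsf9 at 294 and 85.8 and then 74.5 and 82.1, so Icosl went opposite ways in these libraries, with ratios of 7.25 (4.52 to 11.6) and 0.486 (0.293 to 0.810), while Tnfsf9 was higher in library 2 and did not differ beyond counting error in library 3 (ratio 0.907, 0.650 to 1.28). Without library 3, which left 39 mature DC, Tnfrsf18, Icosl and Tnfsf9 were also called and 6 members were higher. The share of all genes called without library 3 was not computed, so this count has no background beside it.

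Of the partner genes tested, Cd80, Tnfsf4 (OX40 ligand) and Cd70 (CD27 ligand) were higher in mature DC, 3 of 4, at 97.1 and 31.3, 44.5 and 5.25, and 64.4 and 0.228 CPM. The last rests on 1 UMI in cDC1 and cDC2, a ratio of 282 (49.7 to 11224). Cd86 had a log2 fold of 0.73. Of 3 other costimulatory genes tested Slamf1 and Pvr were higher and Cd48 was lower, and of 7 adaptors Traf1, Traf3, Birc2 and Birc3 were higher, with Birc2 at 385 and 32.4 CPM. Taken library by library, Birc2 and Tnfsf4 passed the limit in both libraries 2 and 3, whereas Birc3, with folds of 1.10 (0.622 to 1.84) and 1.83 (1.34 to 2.55), passed it in neither, and Cd80, Pvr, Traf1, Traf3 and Cd48 each passed it in 1 of them. Cd70 and Slamf1 were below the tested level in library 2.

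The genes whose levels ran most like each member over the 18 gates are given as a description, by Pearson's r of log2(CPM + 10) among 14103 genes, and the gates share libraries and depth. Cd28 ran most like Dnah8, Zap70 and Cd2 (r = 0.98, 0.97 and 0.96) and Icos like Camk4, Cd6 and Cd247 (0.98, 0.97 and 0.97). Cd27 ran most like Gimap7, Ikzf3 and Tox (0.98, 0.98 and 0.98), and Tnfrsf4 like Cd5, A430093F15Rik and Cd6 (0.97, 0.96 and 0.96). For Tnfrsf9 these were Adora2a, Mir155hg and Stat4 (0.92, 0.92 and 0.91), all highest in mature DC, and for Tnfrsf18 D16Ertd472e, Gm19585 and Cd2 (0.93, 0.92 and 0.92). Cd40lg ran most like Tnfsf8, Il2 and Gm10571 (0.94, 0.88 and 0.88) and Cd40 like Atmin, Zbtb18 and Dnaaf3 (0.94, 0.93 and 0.93). Likeness was lowest for Icosl and Tnfsf9, with Icosl nearest to D930030I03Rik, Synj1 and Bcl2a1a (0.89, 0.85 and 0.84) and Tnfsf9 to Lactb, Zbtb18 and Fuz (0.83, 0.81 and 0.81).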

How the data were processed

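Cells of 4T1 tumours, sorted as CD45+ by the study's account, were profiled by 10x Genomics 3′ scRNA-Seq. The authors deposited 1 matrix of raw UMI counts per gene and barcode, made with Cell Ranger; its version is 3.0.2 in the design text, 6.1.2 in the matrix header and 2.1.1, with mm10, in the submitters' processing notes. All 55450 feature identifiers were in GENCODE vM21 (GRCm38). The design text gives 15603 cells after its filters, against 33064 barcodes in the matrix and 32133 that passed the same limits on genes and mitochondrial UMIs here.

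Cells were gated by per-cell floors on marker genes. The members, lists and markers were chosen with earlier results of these data known, and the floors were set after seeing the data. UMIs were summed per gate and divided by the gate's total. Exact Poisson and Clopper-Pearson intervals at 95% were computed with scipy 1.17.1, clusters (without the 10 genes) with scanpy 1.11.5 and Python 3.11.15. With 1 matrix and no link from suffix to sample, no test across samples was run. A fold past 2 was called after adding 10 CPM, for genes of at least 20 CPM in either gate. A count of 0 was given the level that 3 counts would give. Shares were also computed with each cell thinned to 1000 UMIs. Doublets were treated by leaving out cells that met gates of different compartments. The alternatives were a minimum of 500 genes, at most 10% mitochondrial UMIs, thinning, 1 more marker UMI, the highest 5% of Scrublet scores left out, cells named by cluster, detection at 2 UMIs and each library left out, and 3 chosen after seeing the data.

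Genes named are the 10 members, 3 lists of pathway genes, the 5 genes at each end of a comparison and the 3 genes most like each member. Promoter sequences came from RefSeq and matched 5 of the 10 members. The scripts were tested on simulated data.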

Additional observations from a re-analysis of the deposited data

How the results depend on the processing

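The count of genes led by a T cell gate was 7 under every alternative run, and no called fold changed sign. The count led by mature dendritic cells was 3 and ranged from 0 (without library 3, where the gate had too few cells) to 3 when a library was left out, and was 2 on thinning and by cluster. The Icosl log2 fold in mature DC, not called at 0.41, was -0.26 without library 2 and 1.85 without library 3. The count with 1 leading gate in every library was 2 and ranged from 2 to 6 when a library was left out, with 6 without library 4, which held 15 Foxp3+ T cells, under the 20 needed for an order. The count higher in mature DC was 3 and ranged from 2 (without library 2) to 6 (without library 3). The count higher in Foxp3+ T cells was 3 and ranged from 2 (without library 4) to 3 when a library was left out. It was also 2 where a Cd4 UMI was required of the Foxp3+ T cells. Shares over all genes were not computed under the alternatives. Of the 10 leading levels, 8 moved outside their counting interval without library 2, 7 without library 3 and 7 on thinning; the causes were not tested. Counting intervals do not cover differences between mice, and treatments cannot be told apart. No paired analysis was run, because no label or file ties a library to a sample.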
